A study of Sus scrofa with 6 samples.

Results

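The genes of the chemokine system were compared between the abdominal aorta of pigs given normal chow (NC group) and pigs given the HFCF diet, which is rich in fat, cholesterol and fructose (HFCF group). Members were the genes named CCL, CXCL, CX3CL, XCL, CCR, CXCR, CX3CR, XCR or ACKR with a number. The rule found 43 of the 30477 genes in the deposited table, 24 ligands and 19 receptors, of which 42 genes with 18 receptors are reported here. The animals were male Wuzhishan miniature pigs (a small breed from Hainan), and 3 pigs of each group gave 1 RNA-Seq library each. All pigs shared the breed and sex and were fed their diet for 6 months. Their age is 3 to 4 months in the sample labels, whereas the methods give an older age at purchase. Whole pieces of artery were sequenced, so fewer cells of a type and less RNA per cell cannot be told apart in any value below.

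Chemokines are small secreted proteins that guide leukocytes along concentration gradients by binding G protein-coupled receptors on the surface of the migrating cell. CC and CXC ligands are named after the spacing of their first cysteines, and most inflammatory ligands bind several receptors. Atypical chemokine receptors (ACKR) bind ligands without the usual G protein signal and act mainly as scavengers or transporters. In the artery wall, endothelium, smooth muscle and macrophages all make chemokines, and monocyte entry through CCR2 and CX3CR1 is a classic step in the growth of an atherosclerotic plaque.

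Values are FPKM, which scales fragments by exon length and by library size. A log2 fold change is the HFCF mean minus the NC mean of log2(FPKM + 0.1), a scale that understates the change of genes near 0. Tests were made with limma over the 15384 genes whose FPKM averaged 0.1 or more, and a gene is said to have risen or fallen where its Benjamini-Hochberg adjusted p was under 0.05. With 3 pigs against 3, an exact permutation test of a single gene could not go below p = 0.1. Changes were frequent in this tissue, since 28.9% of all tested genes passed, 22.8% as higher and 6.16% as lower in the HFCF group. Across all tested genes the median log2 fold change was 0.32 and depended on the scaling, as given with the pathway genes further on. The thresholds of the study were a ratio of group means above 2 or below 0.5 with an unadjusted p under 0.05. With the limma p in place of the study's own, the shares of all tested genes were 20.7% higher and 4.82% lower. The same thresholds took 12 ligands as higher and 0 as lower, and 5 receptors as higher and 2 as lower.

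HFCF pig 1 stood apart from the other HFCF pigs. Its red blood cell markers summed to 2906.3 FPKM, whereas HFCF pigs 2 and 3 were at 86.8 and 95.7 FPKM and the NC group at 22.1 to 180.3 FPKM. Its neutrophil markers summed to 95.2 FPKM, against 13.7 and 6.37 FPKM in HFCF pigs 2 and 3 and 1.59 to 3.00 FPKM in the NC pigs. Macrophage markers rose in all HFCF pigs, from sums of 48.4 to 60.1 FPKM in the NC group to 1823.2, 796.2 and 704.5 FPKM. Of these markers 11 of 11 genes were higher (9 to 11 over the alternatives, and 9 without NC pig 1 or NC pig 3). Over all tested genes 22.8% were higher and 6.16% lower. Smooth muscle markers, which define the labelled tissue, were high in every library and summed to 15914.3 to 22729.2 FPKM in the NC group and 7997.2 to 12892.0 FPKM in the HFCF group, with 6 of 8 genes lower (2 to 7 over the alternatives, and 2 without NC pig 1). The part of these shifts in the chemokine results was not tested, and values without HFCF pig 1 are given for several members.

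Ligands rose broadly in the HFCF group and none fell. Of the 24 ligands, 18 passed the filter on low values, and 12 of them rose, 66.7% against the 22.8% of all tested genes that did. Among the 12, CCL16, XCL1 and CXCL11 had NC means of 0, 0.0199 and 0.0118 FPKM and passed the filter only through the HFCF group. They could therefore enter the test only as rises. With a filter at a mean of 1 FPKM, 9 ligands rose, as did 2997 of all 11121 genes then tested. At an unadjusted p under 0.05 the counts were also 12 higher and 0 lower. The median log2 fold change of the 18 tested ligands was 2.20, which lay 1.88 above that of all tested genes. In 13 ligands every HFCF pig lay above every NC pig, a pattern shown by 36.1% of all tested genes. CCL1, CCL17 and CCL28 were listed at 0 in all libraries, and CCL11, CCL22 and CCL27 were too low to be tested. Without HFCF pig 1, 11 ligands rose and the median was 1.94.

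**Figure D1:**
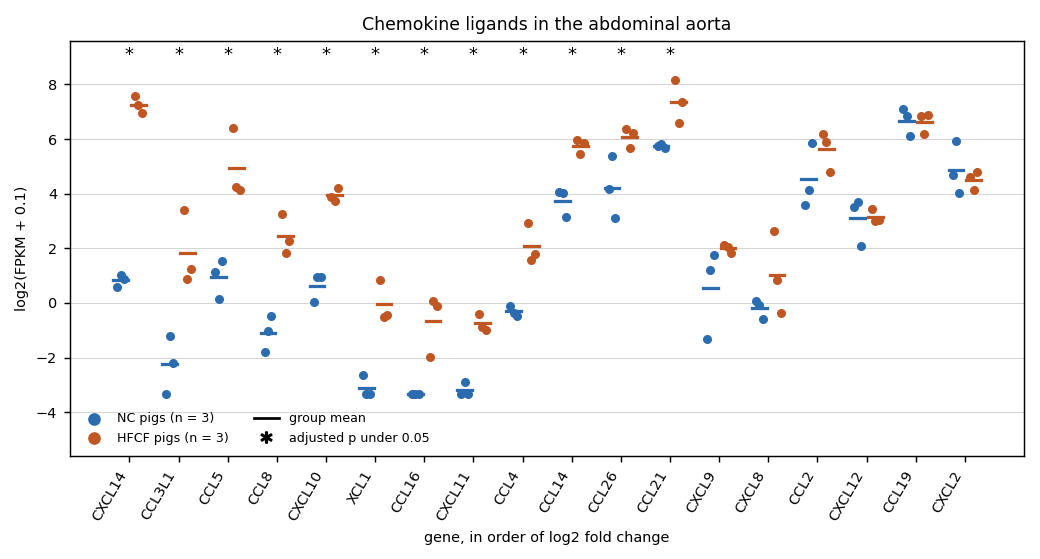
FPKM of the 18 tested chemokine ligands in each pig, on the log2(FPKM + 0.1) scale (vertical axis), ordered by log2 fold change. Points are pigs (3 NC, 3 HFCF), bars are group means and asterisks mark the 12 ligands with an adjusted p under 0.05. CXCL14 has the widest gap between the groups, and the 5 genes at the right end overlap.

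CXCL14 (ENSSSCG00000014310), a CXC ligand with no settled signaling receptor that is made constitutively by many epithelia and stromal cells, changed most among the ligands. It measured 1.39, 1.91 and 1.75 FPKM in the NC pigs and 190.3, 152.7 and 123.6 FPKM in the HFCF pigs. The groups were far apart and each was tight, with means of 1.68 ± 0.263 and 155.6 ± 33.5 FPKM (SD, n = 3 each) and a ratio of means of 92.4. The log2 fold change was 6.44 with a standard error of 0.21 (limma, adjusted p = 5.45e-05). HFCF pig 1 was only 1.38 times the mean of the other HFCF pigs, and without it the log2 fold change was 6.28.

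By log2 fold change CXCL14 ranked 9 of the 15384 tested genes, and by p-value it ranked 2. Among the 12235 tested genes with a symbol it ranked 5, and by the ratio of group means among the 14637 genes above 0 in every NC pig it ranked 11. The 8 genes ahead of it included RNF128 (7.30), ACP5 (7.12) and AMBN (6.84), a Y RNA (7.33), a mitochondrial rRNA (8.38) and a mitochondrial tRNA (6.63). That rRNA measured 0.295 to 0.686 FPKM in the NC pigs and 140.7 to 205.7 FPKM in the HFCF pigs. Another mitochondrial rRNA measured 112.8 to 372.5 FPKM and 101.0 to 130.5 FPKM. A technical difference between the libraries of the groups was not tested. The remaining genes of the 8 were a gene described as hemoglobin subunit beta-like, ENSSSCG00000014727 (8.48), and a gene described as macrosialin, ENSSSCG00000008769 (6.81). Its lowest NC pig was at 1.39 FPKM, whereas 7 of the 8 genes had an NC pig under 0.2 FPKM. The rank moved with the pseudocount and scaling and was 3 with a pseudocount of 1 and 41 with a pseudocount of 0.01, and 23 after rescaling to TPM.

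CXCL14 also changed its place among the chemokines themselves. Per unit of exon length it was the gene of rank 13, 14 and 14 by FPKM among the 42 reported members in the NC group, and of rank 2, 1 and 2 in the HFCF group. It held 0.499%, 0.581% and 0.773% of the summed ligand FPKM in the NC group and 19.4%, 27.8% and 18.9% in the HFCF group. Among all genes its level moved from ranks 8654 to 9178 to ranks 229 to 334. The summed ligand FPKM itself was 279.4, 328.4 and 226.4 in the NC group and 980.2, 549.5 and 653.9 in the HFCF group, with no overlap. From the group means, CCL19 made up 38.2% of it in the NC group, and CCL21 made up 24.9% and CXCL14 21.4% in the HFCF group. CXCL14 was above CCL21 in HFCF pig 2 and below it in HFCF pigs 1 and 3.

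**Figure D2:**
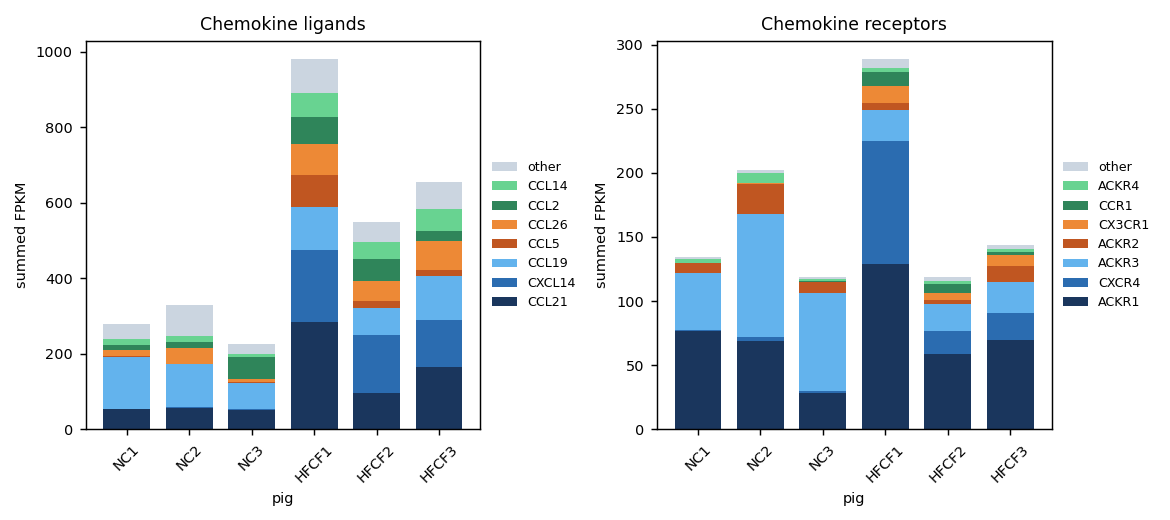
Summed FPKM of the chemokine ligands (left) and receptors (right) in each of the 6 pigs, stacked by gene (vertical axis, FPKM). Bars start at 0. CXCL14 and CCL21 fill much of the ligand bars of the HFCF pigs, and in the receptor bars CXCR4 is close to ACKR3 in HFCF pigs 2 and 3 and above it in HFCF pig 1.

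Of the interferon-inducible ligands of CXCR3, which draw activated T cells and NK cells, CXCL10 and CXCL11 rose. CXCL10 measured 0.913, 1.82 and 1.84 FPKM in the NC pigs and 14.7, 13.3 and 18.6 FPKM in the HFCF pigs. The HFCF pigs were close to each other and all above the NC pigs, with a log2 fold change of 3.31 (SE 0.30, limma adjusted p = 0.00105). CXCL11 was listed at 0, 0.0354 and 0 FPKM in the NC pigs and measured 0.663, 0.447 and 0.402 FPKM in the HFCF pigs, a low level in both groups without overlap (log2 fold change 2.42, SE 0.37, limma adjusted p = 0.00519). CXCL9 measured 0.301, 2.19 and 3.30 FPKM against 4.23, 4.07 and 3.47 FPKM. These values did not overlap, but the NC pigs were widely spread and the difference did not pass (log2 fold change 1.45, limma adjusted p = 0.179). Without NC pig 1 it was 0.52 and without NC pig 3 it was 2.06, and neither passed. CXCR3 itself was near the floor of the data, at 0, 0.162 and 0 FPKM in the NC pigs and 0.13, 0.193 and 0.15 FPKM in the HFCF pigs (limma adjusted p = 0.219).

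The CC ligands grouped with CCR1, which recruit monocytes, macrophages and T cells, rose in all 5 tested members. CCL5 (RANTES), made by T cells, NK cells and platelets among others, measured 2.10, 0.994 and 2.82 FPKM in the NC pigs and 84.1, 18.9 and 17.5 FPKM in the HFCF pigs. All HFCF pigs were higher and pig 1 stood far above the rest. The log2 fold change was 3.99 (SE 0.65, limma adjusted p = 0.00616), and 3.26 without HFCF pig 1. CCL3L1, a MIP-1alpha gene, measured 0, 0.333 and 0.119 FPKM against 10.6, 1.73 and 2.25 FPKM, again led by pig 1 (log2 fold change 4.08, SE 0.79, limma adjusted p = 0.0108, and 3.29 without that pig or 3.54 without NC pig 1). CCL4 (MIP-1beta) measured 0.837, 0.673 and 0.623 FPKM against 7.42, 2.86 and 3.33 FPKM (log2 fold change 2.40, SE 0.38, limma adjusted p = 0.00566, and 1.98 without HFCF pig 1). CCL3L1 can share reads with CCL3, so its level is uncertain. The gene described as C-C motif chemokine 3, ENSSSCG00000047189, was listed at 0 in 5 pigs and at 0.0108 FPKM in HFCF pig 3.

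CCL14, a plasma chemokine that becomes an active CCR1 ligand after cleavage, was abundant in both groups. It measured 16.7, 16.3 and 8.75 FPKM in the NC pigs and 62.0, 43.8 and 57.4 FPKM in the HFCF pigs. The groups were clearly apart and HFCF pig 1 was not an exception, with a log2 fold change of 2.0 (SE 0.28, limma adjusted p = 0.00377). CCL16, a ligand best known from liver, was listed at 0 in the 3 NC pigs and measured 0.152, 0.944 and 0.835 FPKM in the HFCF pigs. Here pig 1 was the lowest. Its fitted log2 fold change of 2.65 (SE 0.59, limma adjusted p = 0.0176) depends on the pseudocount because the NC values are at 0. It was 3.30 without HFCF pig 1, and the call was lost without HFCF pig 2 (adjusted p = 0.053), HFCF pig 3 (0.0507), NC pig 1 (0.0628) or NC pig 2 (0.0538).

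The CCR2 ligands, the main attractants of classical monocytes, moved unequally. CCL8 (MCP-2) measured 0.19, 0.39 and 0.619 FPKM in the NC pigs and 9.48, 3.45 and 4.72 FPKM in the HFCF pigs. All HFCF pigs were higher, with a log2 fold change of 3.55 (SE 0.47, limma adjusted p = 0.00327), and 3.15 without HFCF pig 1. CCL2 (MCP-1), the best known of the group, measured 11.9, 17.6 and 57.5 FPKM against 73.3, 59.3 and 27.6 FPKM. The groups overlapped, since NC pig 3 lay above HFCF pig 3, and the difference did not pass (log2 fold change 1.10, SE 0.61, limma adjusted p = 0.217). Without NC pig 3 it was 1.76 (limma adjusted p = 0.0398). Per exon length CCL2 was still the more abundant of the pair in the HFCF group, with means of 53.4 and 5.88 FPKM.

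The CCR7 ligands CCL19 and CCL21, which guide dendritic cells and naive T cells toward lymphoid tissue, were among the most abundant members and parted. CCL21 measured 53.4, 55.9 and 51.0 FPKM in the NC pigs and 283.6, 96.0 and 165.2 FPKM in the HFCF pigs. The NC pigs were nearly equal and every HFCF pig was higher, with a log2 fold change of 1.63 (SE 0.36, limma adjusted p = 0.0167), and 1.24 without HFCF pig 1. The call was lost without NC pig 1 (adjusted p = 0.0649), NC pig 2 (0.0504) or NC pig 3 (0.0505). CCL19 measured 135.9, 114.1 and 68.8 FPKM against 114.6, 72.9 and 116.8 FPKM, which overlapped throughout (log2 fold change -0.04, SE 0.30, limma adjusted p = 0.928). The ratio of CCL21 to CCL19 within a library, which no scaling of whole libraries can move, was 0.393, 0.49 and 0.742 in the NC group and 2.47, 1.32 and 1.41 in the HFCF group. These ratios did not overlap (exact two-sided permutation p = 0.1, the smallest possible, adjusted p = 0.133 over 8 ratios chosen after the values were seen). CCL21 is made by lymphatic endothelium, whose 4 tested markers did not pass and summed to 8.22, 7.26 and 5.10 FPKM against 15.4, 2.54 and 24.1 FPKM. CCR7 was close to 0, at 0.0665, 0.0261 and 0.0208 FPKM against 0.575, 0 and 0.0436 FPKM (limma adjusted p = 0.543).

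CCL26 (eotaxin-3), a CCR3 ligand that attracts eosinophils, measured 17.8, 41.5 and 8.49 FPKM in the NC pigs and 82.1, 51.3 and 74.9 FPKM in the HFCF pigs. The groups did not overlap, but the gap between NC pig 2 and HFCF pig 2 was small. The log2 fold change was 1.88 (SE 0.53, limma adjusted p = 0.0372) and it passed in only 5 of 16 alternatives. It was lost in the fits without HFCF pig 1 (adjusted p = 0.105), HFCF pig 2 (0.0626), HFCF pig 3 (0.0888), NC pig 1 (0.115) and NC pig 3 (0.0634, log2 fold change 1.32), while without NC pig 2 the log2 fold change was 2.46. XCL1 (lymphotactin), released by NK cells and CD8 T cells for XCR1-bearing dendritic cells, measured 0.0598, 0 and 0 FPKM against 1.67, 0.609 and 0.637 FPKM. Its level was low, HFCF pig 1 was highest and the groups did not overlap (log2 fold change 3.06, SE 0.48, limma adjusted p = 0.00536, and 2.63 without that pig). XCR1 measured 0.144, 0.16 and 0.0503 FPKM against 0.321, 0.154 and 0.329 FPKM, with overlap and a log2 fold change of 0.76 that did not pass (limma adjusted p = 0.212).

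The neutrophil attractants that bind CXCR1 and CXCR2 did not pass. CXCL8 (interleukin-8) measured 0.94, 0.845 and 0.569 FPKM in the NC pigs and 6.05, 1.71 and 0.67 FPKM in the HFCF pigs, so that HFCF pig 1 was high and HFCF pig 3 lay among the NC pigs (log2 fold change 1.23, limma adjusted p = 0.225, 0.44 without HFCF pig 1, and 1.94 with adjusted p = 0.0529 without HFCF pig 3). CXCL2 measured 25.7, 60.7 and 16.1 FPKM against 24.4, 17.6 and 27.5 FPKM and overlapped (log2 fold change -0.36, SE 0.46, limma adjusted p = 0.585). CXCL12 (SDF-1), the homeostatic ligand of CXCR4 and ACKR3, measured 11.3, 12.9 and 4.14 FPKM against 10.7, 7.98 and 8.08 FPKM. The HFCF pigs lay inside the NC range (log2 fold change 0.06, SE 0.42, limma adjusted p = 0.925).

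Receptors moved in both directions, in shares close to those of all tested genes. Of the 18 receptors, 15 passed the filter on low values, of which 4 rose and 1 fell. At an unadjusted p under 0.05 the counts were 5 higher and 2 lower. The shares of 26.7% higher and 6.67% lower stand beside 22.8% and 6.16% of all tested genes. In 5 receptors every HFCF pig lay above every NC pig and in 2 below, patterns shown by 36.1% and 12.1% of all tested genes. Their median log2 fold change was 0.76, which lay 0.43 above that of all tested genes, and it was 0.36 without HFCF pig 1. The 11 tested typical receptors had a median of 0.89 and the 4 atypical receptors a median of -0.60. CCR4, CCR8 and CCR9 were too low to be tested.

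**Figure D3:**
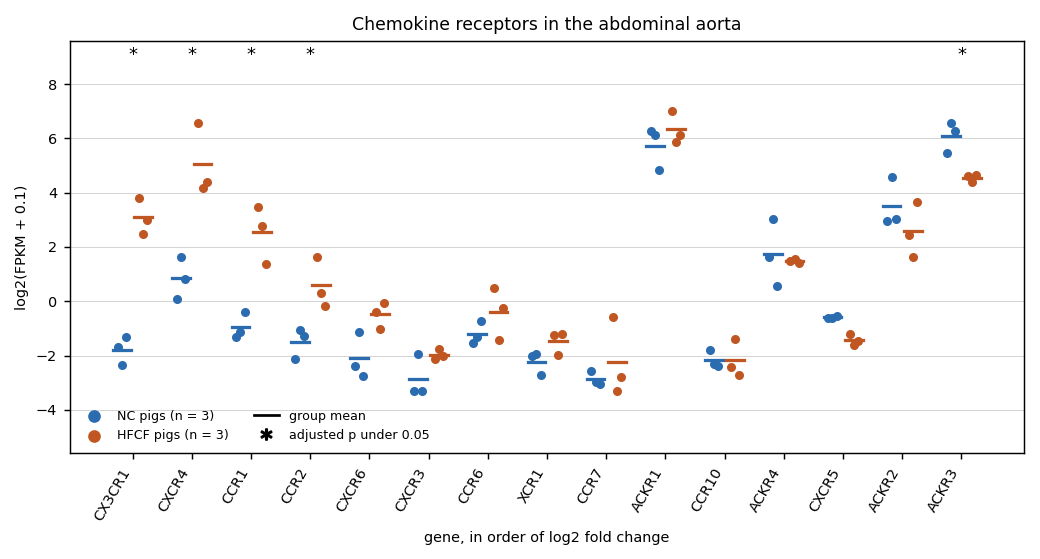
FPKM of the 15 tested chemokine receptors in each pig, on the log2(FPKM + 0.1) scale (vertical axis), ordered by log2 fold change. Points are pigs (3 NC, 3 HFCF), bars are group means and asterisks mark an adjusted p under 0.05. The 4 receptors that rose are at the left, and ACKR3, the 1 that fell, is at the right end.

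The receptors that rose are carried by monocytes, macrophages and lymphocytes. CX3CR1, the fractalkine receptor of patrolling monocytes and tissue macrophages, measured 0.207, 0.0945 and 0.302 FPKM in the NC pigs and 13.8, 5.51 and 7.90 FPKM in the HFCF pigs. Every HFCF pig was far above every NC pig, with a log2 fold change of 4.89 (SE 0.42, limma adjusted p = 0.000903), the largest among the receptors and rank 42 of all tested genes. CCR1, a receptor of CCL5 and CCL23 on monocytes and neutrophils, measured 0.302, 0.359 and 0.664 FPKM against 11.1, 6.76 and 2.47 FPKM. The HFCF pigs were spread but all higher (log2 fold change 3.48, SE 0.55, limma adjusted p = 0.00566, 3.01 without HFCF pig 1 and 4.07 without HFCF pig 3). CCR2, the receptor of CCL2 and CCL8 on classical monocytes, measured 0.128, 0.378 and 0.316 FPKM against 3.02, 1.13 and 0.794 FPKM. The groups did not overlap, and CCR2 was the lowest of the 4 in the HFCF group, with a mean of 1.65 ± 1.20 FPKM (SD, n = 3). Its log2 fold change was 2.08 (SE 0.54, limma adjusted p = 0.0282), and 1.56 without HFCF pig 1. That call was lost in 9 of 15 alternatives: without a filter, with a pseudocount of 1, after quantile normalization, with the replicate block, and without HFCF pig 1 (adjusted p = 0.0513), HFCF pig 2 (0.0591), NC pig 1 (0.0977), NC pig 2 (0.055) or NC pig 3 (0.0589).

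The receptors that rose were also set against CD68, a pan-macrophage marker, within each library. CD68 measured 3.65, 4.11 and 5.67 FPKM in the NC pigs and 261.0, 113.9 and 98.0 FPKM in the HFCF pigs. The ratio of CCR2 to CD68 was 0.0352, 0.092 and 0.0558 in the NC group and 0.0116, 0.00994 and 0.0081 in the HFCF group. It was lower in every HFCF pig (log2 difference -2.53, exact two-sided permutation p = 0.1, adjusted p = 0.133). The ratio of CX3CR1 to CD68 was 0.0566, 0.023 and 0.0533 against 0.0529, 0.0484 and 0.0806, which overlapped (log2 difference 0.52, exact permutation p = 0.6). The ratio of CCR1 to CD68 was lower in every HFCF pig (log2 difference -1.25, exact permutation p = 0.1, adjusted p = 0.133). The ratio of CXCR4 to CD68 was 0.263, 0.737 and 0.293 against 0.368, 0.159 and 0.213, which overlapped (log2 difference -0.73, exact permutation p = 0.4). With 3 pigs against 3 the exact p could not go below 0.1, so no ratio could pass and these tests cannot decide. The ratios were also among the 8 chosen after the values were seen. The ratios hold for the gene named CD68 alone, whose log2 fold change was 4.99. ENSSSCG00000008769, described as macrosialin, a name of CD68, was not used in the ratios or the marker list. It measured 0.132, 0.131 and 1.11 FPKM against 97.9, 32.4 and 28.7 FPKM (log2 fold change 6.81). The log2 fold changes of the listed macrophage markers ran from 1.31 (MRC1) to 5.22 (MSR1). CCR1 (3.48) rose more than CSF1R (2.56) and CD163 (2.97) and less than AIF1 (5.13) and MSR1. Ratios to markers other than CD68 were not tested, so the lower ratios of CCR1 and CCR2 do not show a fall per macrophage.

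The receptors of CXCL12 moved in opposite directions while the ligand overlapped between the groups. CXCR4, the signaling receptor found on most leukocytes, measured 0.961, 3.03 and 1.66 FPKM in the NC pigs and 96.0, 18.1 and 20.8 FPKM in the HFCF pigs. HFCF pig 1 was 4.93 times the mean of the other HFCF pigs, and all 3 were above the NC pigs. The log2 fold change was 4.20 (SE 0.68, limma adjusted p = 0.00612), and 3.44 without HFCF pig 1. ACKR3 (CXCR7), the atypical receptor that clears CXCL12 and is found on vascular and stromal cells, measured 44.3, 95.8 and 76.7 FPKM against 24.3, 21.1 and 24.8 FPKM. All HFCF pigs were lower and nearly equal, with a log2 fold change of -1.56 (SE 0.28, limma adjusted p = 0.00837). ACKR3 was the only member with a fall that passed, and it did so in all 16 alternatives.

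Within a library ACKR3 exceeded CXCR4 by a factor of 46.1, 31.6 and 46.2 in the NC pigs. In the HFCF pigs the ratio was 0.254, 1.16 and 1.19, so that the levels per exon length were nearly equal in HFCF pigs 2 and 3 and turned around in pig 1. The log2 difference of the ratio was -5.85 (exact two-sided permutation p = 0.1, adjusted p = 0.133). Smooth muscle markers were lower and macrophage markers higher in the same HFCF pigs, and their part in the ratio was not tested.

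The other atypical receptors did not pass. ACKR1 (the Duffy antigen receptor), carried by venular endothelium and red blood cells, measured 76.5, 68.9 and 28.2 FPKM in the NC pigs and 128.5, 58.4 and 69.6 FPKM in the HFCF pigs, with overlap (log2 fold change 0.60, SE 0.44, limma adjusted p = 0.342). Its highest value was in HFCF pig 1, which also had the highest sum of red blood cell markers (2906.3 FPKM). In NC pigs 1, 2 and 3 those sums were 180.3, 22.1 and 114.5 FPKM, an order that ACKR1 did not follow. The part of red blood cells or endothelium in the ACKR1 values was not tested. ACKR2, a scavenger of inflammatory CC ligands, measured 7.69, 23.9 and 7.99 FPKM against 5.27, 3.03 and 12.4 FPKM (log2 fold change -0.95, limma adjusted p = 0.276). ACKR4, a scavenger of CCL19 and CCL21, measured 3.01, 8.08 and 1.39 FPKM against 2.71, 2.86 and 2.59 FPKM (log2 fold change -0.25, limma adjusted p = 0.762). Both overlapped, and NC pig 2 held the highest value of each.

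CXCR6 and CXCR5 lay close to the threshold. CXCR6, a receptor of resident and effector T cells, measured 0.0909, 0.359 and 0.0489 FPKM in the NC pigs and 0.654, 0.398 and 0.866 FPKM in the HFCF pigs, without overlap (log2 fold change 1.60, limma adjusted p = 0.056, and 0.032 without NC pig 2). CXCR5, the receptor of B cells and follicular helper T cells, measured 0.552, 0.556 and 0.587 FPKM against 0.336, 0.23 and 0.266 FPKM. It was lower in every HFCF pig (log2 fold change -0.83, SE 0.29, limma adjusted p = 0.0735) and passed in 4 of 15 alternatives (without a trend, with quantile or TPM values and after median-ratio scaling). CCR6, CCR10 and XCR1 stayed between 0.0503 and 1.32 FPKM in all pigs and overlapped between the groups.

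**Figure D4:**
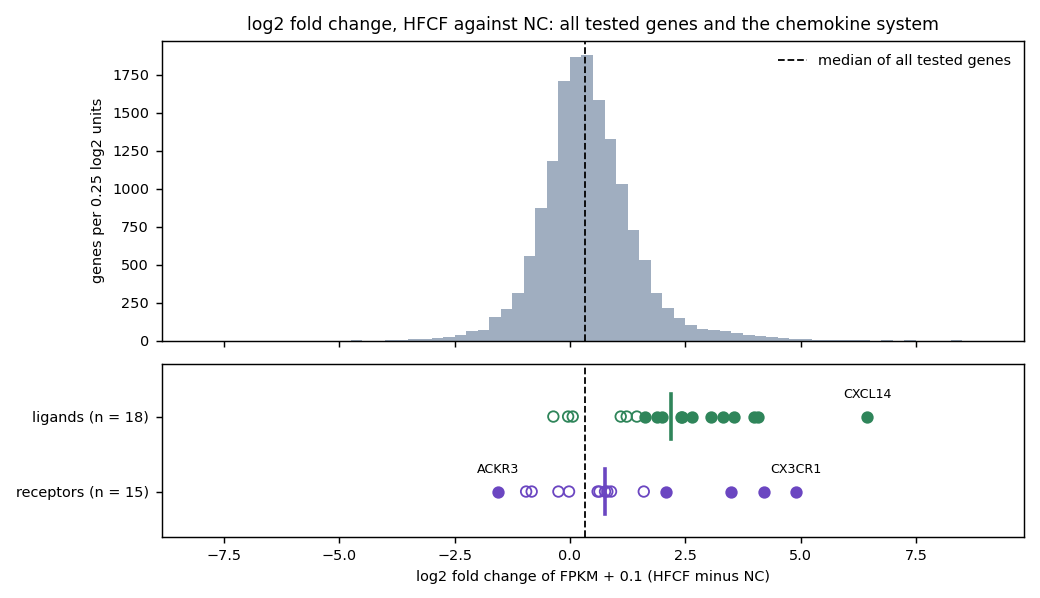
Log2 fold change of FPKM + 0.1 (horizontal axis, HFCF minus NC) for all 15384 tested genes as a histogram (top) and for the 18 ligands and 15 receptors (bottom). Filled points have an adjusted p under 0.05, short vertical lines are medians (2.20 and 0.76), and the dashed line is the median of all tested genes (0.32).

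The HFCF pigs themselves were not alike. HFCF pig 1 had the highest value in 14 of the 16 members that rose, 10 of 12 ligands and 4 of 4 receptors, whereas over all genes that rose it was highest in 2021 of 3505. Among the members that rose, the excess of pig 1 over the mean of pigs 2 and 3 was largest for CCL3L1 (5.30 times), CXCR4 (4.93 times) and CCL5 (4.62 times). It was small for CXCL14 (1.38 times) and CCL14 (1.23 times), and CXCL10 was lower in pig 1 (0.921 times). T cell markers summed to 2.23 to 2.75 FPKM in the NC pigs and to 21.5, 4.09 and 6.45 FPKM in the HFCF pigs, with 2 of 9 tested genes higher. NK cell markers summed to 2.43 to 3.84 FPKM against 103.6, 33.3 and 33.3 FPKM with 2 of 7 higher, and B cell markers to 6.79 to 11.3 FPKM against 49.6, 38.3 and 35.8 FPKM with 1 of 5 higher. The neutrophil list had 1 of 4 tested genes higher and the dendritic cell list 1 of 5, and no gene of the red blood cell (4), endothelium (7) or adipocyte (6) lists passed, while fibroblasts had 1 of 7 higher. The shares in the lists with a gene higher, from 14.3% (fibroblast) to 28.6% (NK cell), lay near the 22.8% of all tested genes. In most alternatives at most 1 gene of the T cell list or of the NK cell list was higher. At an unadjusted p under 0.05, limma took 2 endothelium genes as higher and 0 genes of the red blood cell, adipocyte and lymphatic lists. Adipocyte markers summed to 191.6, 299.9 and 38.1 FPKM in the NC pigs and to 100.9, 73.3 and 93.1 FPKM in the HFCF pigs, and without NC pig 3 limma took 4 of the 6 as lower. Their part in the chemokine values was not tested.

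Genes of the family that the naming rule did not reach were read by their descriptions. ENSSSCG00000033457, described as C-C motif chemokine 23, a CCR1 ligand, measured 0.315, 0.495 and 0.363 FPKM in the NC pigs and 18.2, 10 and 7.42 FPKM in the HFCF pigs. The groups were far apart (log2 fold change 4.52, SE 0.36, limma adjusted p = 0.000751), and among the named ligands CXCL14 alone had a larger log2 fold change. ENSSSCG00000017920, described as CXCL16, a scavenger receptor for oxidized lipoprotein and the ligand of CXCR6, measured 7.37, 3.77 and 6.15 FPKM against 17.6, 19.2 and 10.1 FPKM without overlap (log2 fold change 1.42, limma adjusted p = 0.0197). ENSSSCG00000036445, described as CXCL13, the B cell attractant that binds CXCR5, was listed at 0, 0 and 0.0763 FPKM against 0.575, 0.15 and 0.331 FPKM (log2 fold change 1.79, limma adjusted p = 0.0367). With an NC mean of 0.0254 FPKM it passed the filter only through the HFCF group and could enter the test only as a rise. The CXCL16 call was lost in 4 of 16 alternatives, among them the fits without HFCF pig 1, HFCF pig 2 or NC pig 2. The CXCL13 call was lost in 8 of 15, among them those without HFCF pig 1, HFCF pig 3, NC pig 1 or NC pig 2. ENSSSCG00000016184, described as CXCR2, the neutrophil receptor of CXCL8, measured 0.0348, 0.065 and 0.104 FPKM against 5.19, 0.079 and 0.254 FPKM, so that its high value was in HFCF pig 1 only (limma adjusted p = 0.222). The genes described as CCL24 and CCL25 did not pass (limma adjusted p = 0.519 and 0.791), and those described as CCL20 and CXCL17-like were listed at 0.

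Among chemokine-related genes with other names, 2 of 6 tested rose (33.3%, against 22.8% of all tested genes) and 0 fell. CCRL2, a non-signaling receptor that presents chemerin, measured 0.531, 0.299 and 0.212 FPKM in the NC pigs and 6.65, 2.10 and 2.84 FPKM in the HFCF pigs (log2 fold change 3.04, limma adjusted p = 0.00566). GPR35, a receptor of immune and gut cells, had a log2 fold change of 3.00 (limma adjusted p = 0.0048). Both were higher in every HFCF pig. PPBP, a platelet chemokine, was at 5.71 FPKM in HFCF pig 1 and at most 0.0913 FPKM in the other 5 pigs (limma adjusted p = 0.218). Of 8 tested proteases that shed or trim chemokines, 3 rose (37.5%, against 22.8% of all tested genes) and 0 fell, namely MMP9 (log2 fold change 5.21, limma adjusted p = 0.0102), ADAM10 (1.99, 0.00311), which sheds CXCL16 and CX3CL1, and DPP4 (1.54, 0.0121), which truncates CXCL10 and CXCL12. At an unadjusted p under 0.05, 0 genes of both lists were lower.

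Of 60 tested genes of the pathway below the receptors, 25 rose and 2 fell, with a median log2 fold change of 0.65. These are 41.7% and 3.33%, against 22.8% and 6.16% of all tested genes, whose median was 0.32. WAS, the actin regulator of blood cells, rose most (log2 fold change 4.40, SE 0.35, limma adjusted p = 0.000774). RGS1, which ends G protein signals in leukocytes, measured 7.53, 11.0 and 11.4 FPKM in the NC pigs and 292.6, 136.6 and 152.0 FPKM in the HFCF pigs (log2 fold change 4.21, limma adjusted p = 0.000639). VAV1, a Rac activator of blood cells, followed (3.90, limma adjusted p = 0.00109). The kinase MAPK3 (-0.90, limma adjusted p = 0.00747) and the G protein subunit GNB1 (-0.40, limma adjusted p = 0.0463), which many cell types use, fell, and GNB1 passed in only 7 of 16 alternatives. Without NC pig 1 the number that rose was 16.

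Scaling moved the split between higher and lower calls. Over all tested genes it was 3505 higher and 948 lower with the deposited values, 2032 and 1968 after median-ratio scaling, 1748 and 1782 after quantile normalization, and 2229 and 1527 after rescaling to TPM. For the pathway genes it was 18 and 11, 19 and 5, and 18 and 9 under the same scalings. The mitochondrial share of summed FPKM was 4.65% to 6.93% in the NC pigs and 9.02% to 13.4% in the HFCF pigs, and with mitochondrial genes left out of the TPM the splits were 2624 and 1269 over all genes and 23 and 4 in the pathway. Among the chemokine genes the directions of all 17 calls were the same under every scaling, and the counts of ligands that rose ranged from 9 to 12 over all alternatives.

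**Figure D5:**
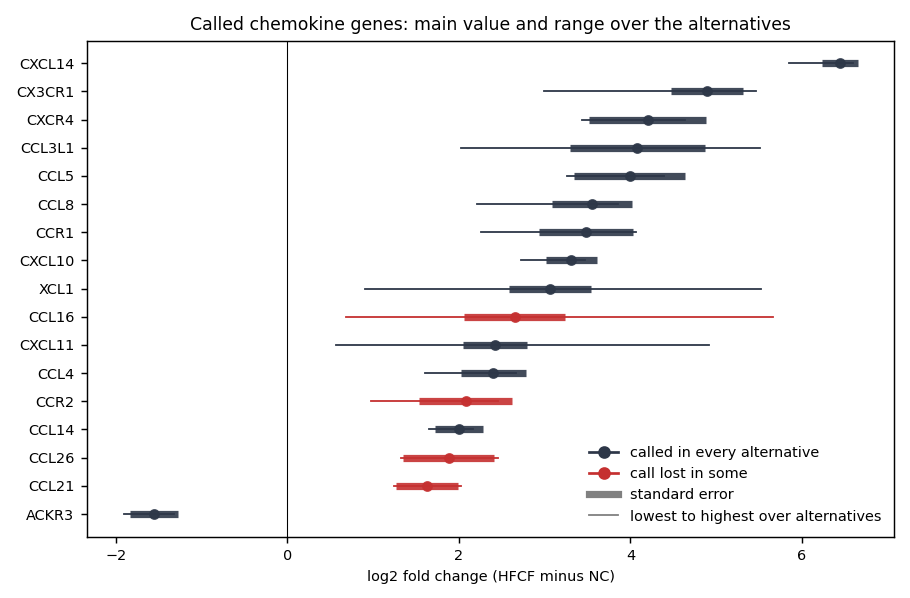
Log2 fold change (horizontal axis, HFCF minus NC) of the 17 chemokine genes with an adjusted p under 0.05. Points are the main values, thick bars 1 standard error and thin lines the lowest and highest values over up to 16 alternatives. The 13 dark genes passed in every alternative, and CCL16, CCR2, CCL26 and CCL21, in red, did not pass in some.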

How the data were processed

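The authors extracted total RNA with TRIzol, prepared mRNA-Seq libraries, trimmed reads with cutadapt 1.9, aligned them with HISAT2 and quantified them with StringTie, and deposited FPKM values per gene, according to the methods and the submitters' processing notes. The methods name an older genome build than that of the reference table, and coordinates are left out. Counts were not used here and the depth is unknown; relative depths estimated from steps between low values were 1.00 to 1.37. A value of 0.0001 was read as 0.

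Values were tested as log2(FPKM + 0.1) in genes averaging 0.1 FPKM or more, using limma (version 3.58.1, R version 4.3.3), a model with diet alone and eBayes with a trend. P-values were adjusted by Benjamini-Hochberg across every gene tested. The script was tested on simulated data. Ratios within libraries were compared by exact permutation. The members and the gene lists were chosen with earlier results of these data known. Of the receptors found by the rule, 1 is not reported here. Named with values in every pig were CXCL14, members that passed, the 5 most abundant ligands and receptors, and their partners. Other genes named were chosen after their values were seen, apart from the top 3 of each list in each direction. Alternatives were other pseudocounts, filters and scalings, eBayes without trend, a replicate block, the thresholds of the study and leaving out each pig. The authors' annotation of GO terms and pathways was not used here. Same-numbered pigs of the groups did not deviate together (correlations 0.021, -0.079 and -0.072), so numbers were not taken as pairs.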

Additional observations from a re-analysis of the deposited data

How the results depend on the processing

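Of the 17 chemokine genes that passed, 13 passed in all alternatives run for them (up to 16), and 4 (CCL16, CCL26, CCL21 and CCR2) did not in some. No gene that passed changed direction. Of the 16 that did not pass, 3 (CCL2, CXCR6 and CXCR5) passed in some alternative. The cause was not tested for the values that follow, and low FPKM limits what can be said of XCL1, CCL16, CXCL11, CXCR3 and CCR7.

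The median log2 fold change of the ligands was 1.33 with a pseudocount of 1, and that of the receptors was 0.19 with it. The number of receptors that fell was 2 without a trend, after median-ratio scaling, quantile normalization and rescaling to TPM, and by the thresholds of the study. CXCL14 ranked 41 with a pseudocount of 0.01, 23 after rescaling to TPM and 21 after TPM without mitochondrial genes, an alternative chosen after seeing the data. Without 1 pig its rank ranged from 8 to 14 and its log2 fold change from 6.28 to 6.59. The pathway genes that rose numbered 16 to 25 without 1 pig, and those that fell 1 to 2. Those that fell numbered 11 after median-ratio scaling, 5 after quantile normalization, 9 after TPM, 4 after TPM without mitochondrial genes, 1 without a trend, without a filter and with a replicate block, and 0 by the thresholds of the study.

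The log2 fold change of CXCL12 turned to -0.29 after median-ratio scaling, -0.22 after quantile normalization, -0.20 after TPM and -0.09 after TPM without mitochondrial genes, and ranged from -0.44 to 0.36 without 1 pig. Without 1 pig it ranged for CCL19 from -0.33 to 0.18, for CXCL2 from -0.79 to 0.16, for CCR7 from -0.19 to 1.19, for CCR10 from -0.41 to 0.26 and for ACKR4 from -0.84 to 0.39. CCR10 was at 0.01 with a pseudocount of 1. With the replicate block, 2232 genes were higher and 540 lower, against 3505 and 948 without it, and 11 ligands rose, 3 receptors rose and 1 fell.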
